A study of Mus musculus with 25 samples.

Results

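Blood vessels of the sciatic nerve were followed through 10 genes, namely the endothelial genes Pecam1, Kdr, Flt1, Tek and Emcn, the ligand gene Vegfa, and the mural cell genes Pdgfrb, Rgs5, Cspg4 and Mcam, chosen as listed vessel markers out of the 56956 genes of the count table. Poly(A) RNA of whole sciatic nerves was sequenced in 5 groups of mice, with 1 library per group from animals 3, 5, 7, 9 or 12 weeks old, giving 25 libraries in all. The nerves of 4 to 5 animals of both sexes had been pooled for each library, so a library is an average over animals, and the spread within a group is that of its 5 libraries, which differ in age. The names of all 25 libraries share a prefix, which does not settle whether they were handled as 1 batch. No mouse received a treatment.

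C3 mice, B6.Cg-Tg(PMP22)C3Fbas/J on the C57BL/6J background, carry 5 copies of human PMP22 and are a model of the demyelinating neuropathy CMT1A, in which an extra copy of this myelin protein gene causes the disease. Their wild-type controls on the same background are called WT-C3. C22 mice, Tg(PMP22)C22Clh on the FVB/NRJ background, carry 10 copies of the same human gene, and their wild-type controls are called WT-C22. C3 is a partial revertant of C22, and the transgene in both is a yeast artificial chromosome. C3 c-JunP0Cre mice carry the C3 transgene and have in addition lost c-Jun in Schwann cells, through a Cre recombinase driven by the promoter of the myelin gene P0, so endothelial cells and pericytes are not the cells in which c-Jun was removed. Copy number and strain differ together between C22 and C3, and their parts cannot be told apart.

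Endothelial cells line every vessel, and in the endoneurium their tight junctions form the blood-nerve barrier. VEGF-A, made from Vegfa by many cell types, acts on endothelial cells through the receptors encoded by Kdr (VEGFR2, the main signalling receptor) and Flt1 (VEGFR1, which also traps the ligand). Tek encodes TIE2, the receptor of the angiopoietins, Pecam1 an adhesion protein of endothelial junctions, and Emcn a sialomucin of capillary and venous endothelium. Pericytes are the mural cells wrapped around capillaries; they are recruited by PDGF-B from the endothelium through the receptor encoded by Pdgfrb, and Rgs5 encodes a regulator of G-protein signals that is abundant in them. Cspg4 encodes the proteoglycan NG2, and Mcam encodes CD146, an adhesion protein that endothelial and smooth muscle cells make as well; neither of these last genes is restricted to pericytes.

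All 10 genes passed the filter on low counts and were read by between 35 and 11691 counts per library, on totals of 2140142 to 49072746 counts per library. The shallowest library is that of C3 at 9 weeks, with 2140142 counts, and the next one holds 9001002, so the C3 values at 9 weeks carry the largest counting error. Levels are given as CPM, the counts of a gene relative to the total of its library, scaled by the TMM factors of edgeR. Jun was between 26.4 and 31.8 CPM in the 5 C3 c-JunP0Cre libraries, against 94.1 to 125 in C3 and 51.5 to 72.6 in WT-C3. The human gene row ENSG00000109099 held 7896 to 16276 CPM in the libraries of the 3 transgenic groups and at most 6.43 in those of the wild types. Its mean was 12670 CPM in C3, 11473 in C3 c-JunP0Cre and 11889 in C22, so it was not higher in C22 than in C3. In the other 2 groups Jun was 38.4 to 76.7 CPM (WT-C22) and 136 to 183 CPM (C22). Each library therefore matched its label as transgenic or wild type on the human row, and the C3 c-JunP0Cre libraries matched theirs on Jun. These genes do not check the labels of strain, copy number or age.

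Per kilobase of exon, the mural genes Mcam, Rgs5 and Pdgfrb had the highest mean levels in WT-C3. The mean was 37.5 CPM per kilobase for Mcam, 35.2 for Rgs5 and 22.8 for Pdgfrb. Pecam1 (14.7), Vegfa (13.9) and Cspg4 (13.7) followed, then Kdr (8.51) and Tek (8.14), and last Flt1 (4.70) and Emcn (4.08), all in CPM per kilobase. The ranges of the 5 libraries overlapped between Mcam and Rgs5, among Pecam1, Vegfa and Cspg4, between Kdr and Tek, and between Flt1 and Emcn, so the order within these sets is within the spread. In C22, Mcam stood alone at the top with 84.8 CPM per kilobase, and the range of Rgs5, the next gene at 26.3, did not reach it.

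Promoter sequence is shown for Kdr and Flt1, the VEGF receptor genes, whose fold changes were the largest of the endothelial members in C22, for Rgs5, which fell in both models, and for Mcam, which rose in both. The RefSeq promoter table (GRCm38.p6) held 9 entries for 8 of the 10 genes. Each line is the 250 bases before the annotated start, read 5′ to 3′ along the gene. Every GGAA, the core that ETS factors of endothelial cells bind, or its reverse complement TTCC is in capitals.
Kdr, chr5:75978456-75978705, minus strand: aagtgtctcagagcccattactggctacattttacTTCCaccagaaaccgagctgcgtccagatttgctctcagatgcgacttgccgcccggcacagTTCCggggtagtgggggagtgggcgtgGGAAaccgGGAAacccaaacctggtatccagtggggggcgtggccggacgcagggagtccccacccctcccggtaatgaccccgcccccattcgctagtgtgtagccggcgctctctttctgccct
Flt1, chr5:147726012-147726261, minus strand: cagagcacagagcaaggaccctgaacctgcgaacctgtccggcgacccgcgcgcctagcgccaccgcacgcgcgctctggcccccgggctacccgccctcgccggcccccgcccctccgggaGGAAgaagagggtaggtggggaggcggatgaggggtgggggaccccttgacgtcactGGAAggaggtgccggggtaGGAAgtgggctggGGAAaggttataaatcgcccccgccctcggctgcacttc
Rgs5, chr1:169655251-169655500, plus strand: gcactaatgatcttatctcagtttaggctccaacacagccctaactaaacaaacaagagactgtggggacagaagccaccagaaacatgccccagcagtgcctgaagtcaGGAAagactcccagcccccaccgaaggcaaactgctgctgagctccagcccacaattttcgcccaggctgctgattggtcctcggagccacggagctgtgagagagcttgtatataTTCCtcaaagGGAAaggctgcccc
Mcam, chr9:44134408-44134657, plus strand: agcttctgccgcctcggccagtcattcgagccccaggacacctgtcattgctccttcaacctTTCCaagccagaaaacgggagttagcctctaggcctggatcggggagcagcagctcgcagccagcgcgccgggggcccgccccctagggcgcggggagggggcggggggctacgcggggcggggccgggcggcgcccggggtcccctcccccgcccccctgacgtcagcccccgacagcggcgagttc
Kdr and Flt1 held 4 GGAA matches each, Rgs5 3 and Mcam 1, on either strand. All 9 entries held at least 1, but so did 93.4% of the 32817 promoter windows of that length, so the motif does not set these genes apart. The letters ACGTG, the core of the hypoxia response element, stood in 1 of the 9 entries, one of the 2 of Vegfa, against 16.6% of all windows. That entry spans positions 46025164 to 46025413 of chromosome 17 on the minus strand. The other Vegfa entry, at 46032378 to 46032627, lies upstream of it along the gene and held no match. The match thus lies downstream of the other annotated Vegfa start. TGANTCA, the AP-1 motif to which c-Jun binds, was in none of the 9 entries and in 6.75% of all windows; a search of this window alone says nothing of sites elsewhere. In the annotation of GRCm39, the build named in the submitters' notes, Kdr spans positions 76093487 to 76139884 of chromosome 5, Flt1 147498414 to 147662826 of chromosome 5, Rgs5 169483036 to 169524887 of chromosome 1 and Mcam 44045504 to 44054025 of chromosome 9.

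**Figure D1:**
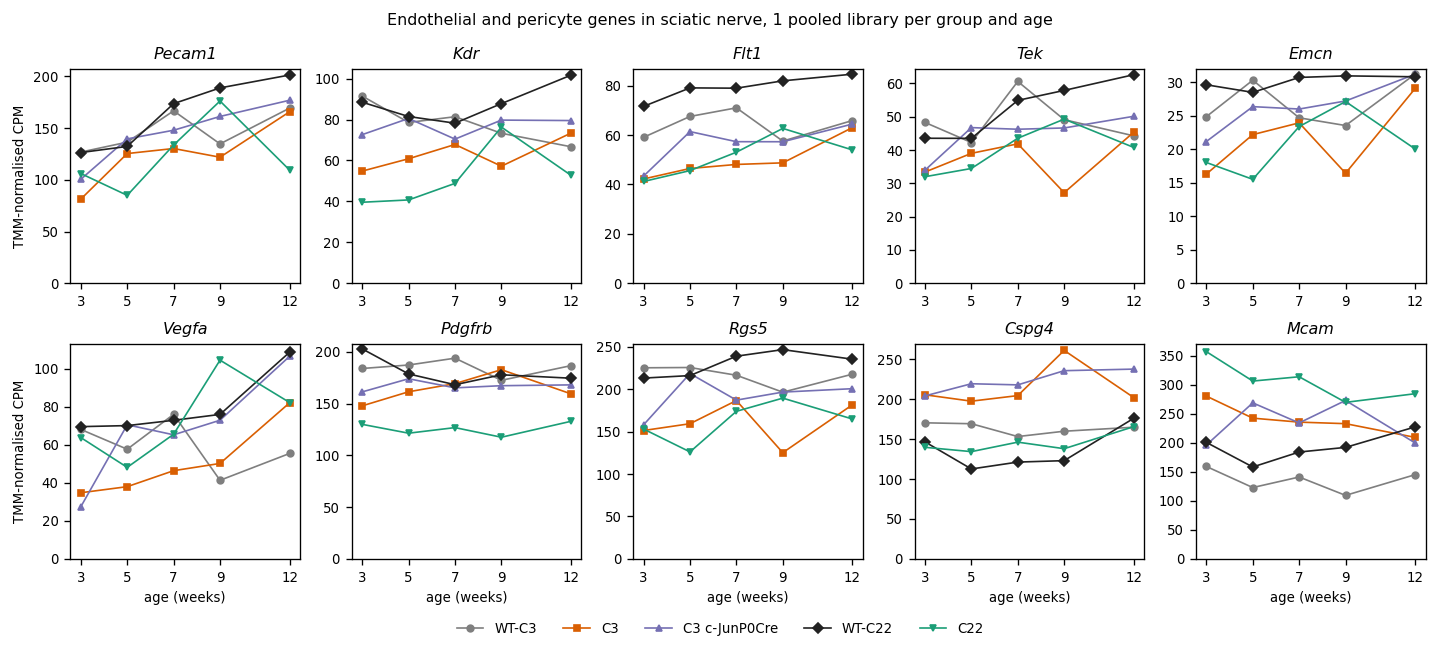
TMM-scaled CPM of the 10 genes (vertical axes, starting at 0) against age in weeks (horizontal axes) in the 5 groups, with 1 point per pooled library. Mcam is higher in C3 and C22 than in their own wild types at 5 of 5 ages, while Rgs5 is lower at 5 of 5 ages in both.

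The comparison of C22 with WT-C22 asks how vessel genes stand in the nerve with the higher transgene copy number. Kdr, Flt1, Tek, Emcn, Pdgfrb and Rgs5 were lower in C22, Mcam was higher, and Pecam1, Cspg4 and Vegfa were not called. Of the 10 genes, 7 passed the test, 6 lower and 1 higher, beside 42.4% of the 13993 genes tested, 20.5% lower and 21.9% higher. The libraries of the 2 groups did not overlap for 6 genes, 5 lower (14.5% of all genes) and 1 higher (16.1%). The median log2 fold change of the 10 genes was -0.48, against 0.0046 over all genes. Since the nerve was sequenced whole, fewer cells of a type and less RNA per cell cannot be told apart. The mice of different ages enter as replicates, so the p-values measure the spread between libraries of a group, age included.

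Kdr stood at 88.4, 81.5, 78.2, 87.8 and 102 CPM in WT-C22, in order of age, and at 39.6, 40.7, 48.8, 76.3 and 52.7 CPM in C22. The 5 C22 libraries were all below the 5 wild-type libraries, with the library of 9 weeks closest to them. The log2 fold change of Kdr was -0.77 ± 0.16 (SE, n = 5 and 5; adjusted p = 0.00267). Flt1 was 71.6, 79.1, 79.0, 82.0 and 84.7 CPM in WT-C22 and 41.2, 45.6, 53.1, 62.7 and 54.0 in C22. Here too the groups did not overlap, and Flt1 fell by 0.63 ± 0.10 on the log2 scale (adjusted p = 0.000559). Both VEGF receptor genes were thus reduced, Kdr with the larger change and the larger error.

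Emcn, the endothelial sialomucin, ranged from 28.5 to 30.9 CPM in WT-C22 and from 15.5 to 27.1 in C22, a log2 change of -0.54 ± 0.13 (adjusted p = 0.00530). Tek, the angiopoietin receptor, ranged from 43.5 to 62.6 CPM in WT-C22 and from 32.0 to 49.3 in C22. Its log2 change was -0.40 ± 0.14 (adjusted p = 0.0353), the ranges overlapped, and the call was lost, at adjusted p of 0.0568 to 0.0914, when the C22 library of 3, 5 or 12 weeks or the WT-C22 library of 7, 9 or 12 weeks was left out. Pecam1 was 126, 132, 174, 189 and 201 CPM in WT-C22 and 106, 85.0, 134, 176 and 109 in C22. It was lower in C22 at 5 of 5 ages but did not pass the test (log2 change -0.44 ± 0.19, adjusted p = 0.0878). Without the C22 library of 9 weeks the log2 change of Pecam1 was -0.61 with adjusted p = 0.0147.

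Pdgfrb, a PDGF receptor gene, held 203, 179, 168, 178 and 175 CPM in WT-C22 and 130.0, 121, 127, 118 and 133 in C22. No C22 library reached the wild-type range, and the gene fell by 0.53 ± 0.065 on the log2 scale (adjusted p = 7.49e-05). Rgs5 was 213, 216, 239, 247 and 235 CPM in WT-C22 and 153, 126, 174, 189 and 165 in C22, again without overlap. Rgs5 fell by 0.52 ± 0.10 (log2; adjusted p = 0.00178).

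Mcam moved the other way. Its level was 201, 158, 184, 192 and 227 CPM in WT-C22 and 357, 306, 314, 269.7 and 285 in C22. Every C22 library was above every wild-type library, and the log2 change was 0.66 ± 0.11 (adjusted p = 0.000436). Cspg4 ranged from 113 to 176 CPM in WT-C22 and from 134 to 166 in C22, with no detectable difference (0.08 ± 0.12, adjusted p = 0.586). Vegfa, the ligand gene, ranged from 69.5 to 109 CPM in WT-C22 and from 48.1 to 104 in C22 (-0.13 ± 0.19, adjusted p = 0.604), so a change of the ligand was not detectable beside the change of its receptors. With library-size scaling the C22 median over all genes shifted by 0.17 and 76.0% of the called genes were higher, against 51.7% with TMM; under that scaling 6 members were called, Tek was lost, and the log2 change of Vegfa was 0.041.

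The same comparison in C3, with the lower copy number, called fewer of these genes. Rgs5 and Flt1 were lower in C3, Mcam and Cspg4 higher, and the other 6 genes did not pass the test. These are 4 of 10 genes called, beside 23.9% of the 13993 genes tested, and the median log2 fold change was -0.27 for the 10 genes and 0.0011 for all. Among all genes 11.4% were called lower and 12.5% higher. For Rgs5 the groups did not overlap, as in 8.23% of all genes with lower values, and for Mcam and Cspg4 they did not overlap either, as in 9.27% with higher values.

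Rgs5 held 225, 226, 216, 196 and 218 CPM in WT-C3 and 151, 159, 187, 125 and 182 in C3. All 5 C3 libraries were below those of the wild type, and the log2 change was -0.42 ± 0.11 (adjusted p = 0.0155). Flt1 was 59.1, 67.5, 71.0, 57.6 and 65.9 CPM in WT-C3 and 42.2, 46.5, 48.1, 48.8 and 63.0 in C3, where only the library of 12 weeks reached the wild-type range. The log2 change of Flt1 was -0.37 ± 0.11 (adjusted p = 0.0334). That call did not hold when the C3 library of 3, 5, 7 or 9 weeks or the WT-C3 library of 5, 7 or 12 weeks was left out, with adjusted p of 0.0520 to 0.0842.

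Mcam stood at 159, 123, 141, 109 and 145 CPM in WT-C3 and at 280.5, 242, 236, 233 and 209 in C3. The lowest C3 library stood above the highest wild-type library, and Mcam rose by 0.82 ± 0.11 on the log2 scale (adjusted p = 0.000484). Cspg4 was 170.4, 169, 153, 159.9 and 165 CPM in WT-C3 and 206, 198, 204, 261 and 202 in C3. It rose by 0.38 ± 0.081 (log2; adjusted p = 0.00648); its highest value came from the shallow library of 9 weeks, and without that library the log2 change was 0.31 (adjusted p = 0.00487).

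Kdr in C3 missed the threshold, with a log2 change of -0.31 ± 0.11 and adjusted p = 0.0524. Tek (-0.36 ± 0.14, adjusted p = 0.0764), Emcn (-0.29 ± 0.16, adjusted p = 0.214) and Pecam1 (-0.23 ± 0.16, adjusted p = 0.323) had negative estimates as well. Pdgfrb was not called between C3 and WT-C3 (-0.18 ± 0.070, adjusted p = 0.0834), nor was Vegfa, which had the largest error of the 10 (-0.25 ± 0.23, adjusted p = 0.477). The oldest C3 library had the highest endothelial levels of its group. When the C3 library of 12 weeks was left out, 8 of the 10 genes were called instead of 4, among them Kdr (-0.37), Tek (-0.43), Emcn (-0.42) and Vegfa (-0.52).

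**Figure D2:**
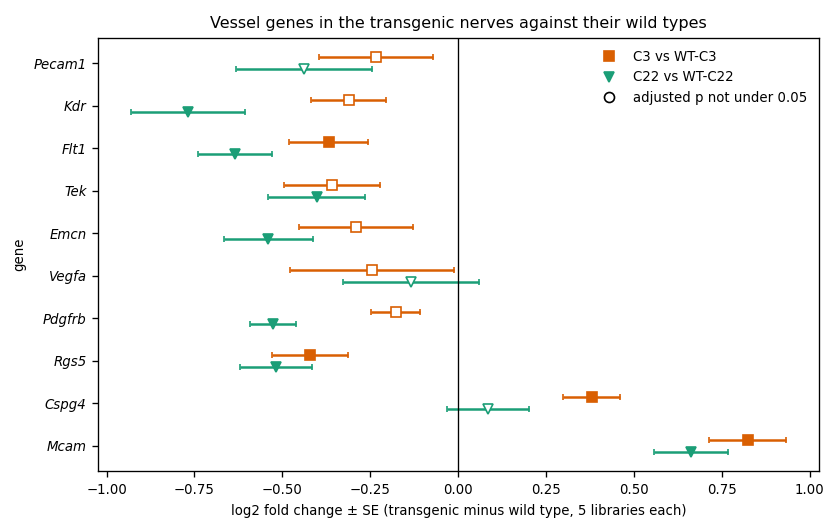
Log2 fold changes (horizontal axis, transgenic minus wild type) of the 10 genes with bars of 1 SE, for C3 against WT-C3 (squares) and C22 against WT-C22 (triangles), 5 libraries per group; filled symbols had an adjusted p under 0.05. Pdgfrb is at -0.18 in C3 and -0.53 in C22, and Mcam at 0.82 and 0.66.

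A test of the difference between the 2 models, the C22 change minus the C3 change, called 1 of the 10 genes, beside 12.1% of all genes, 7.31% in the direction of a lower C22 change. It was Pdgfrb, whose change was lower by 0.37 ± 0.089 on the log2 scale in C22 (adjusted p = 0.00878) and lower at 5 of 5 ages. That call was lost with library-size scaling (-0.25, adjusted p = 0.0729) and with no filter on low counts (-0.34, adjusted p = 0.0820). Kdr (-0.47 ± 0.21, adjusted p = 0.165), Cspg4 (-0.31 ± 0.14, adjusted p = 0.186) and Flt1 (-0.28 ± 0.16, adjusted p = 0.294) had negative estimates that did not pass after adjustment. For Mcam the difference was -0.18 ± 0.15 (adjusted p = 0.527), and for Rgs5 -0.11 ± 0.15 (adjusted p = 0.729), so no difference between the models was detectable for these genes. Without the C22 library of 9 weeks, Kdr was called too (-0.65, adjusted p = 0.00951).

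No change of the vessel genes was called on loss of c-Jun in the Schwann cells of C3 nerves. None of the 10 genes passed in C3 c-JunP0Cre against C3, by edgeR or by DESeq2, beside 0.55% of all genes, and 1, Kdr, had an unadjusted p under 0.05 by edgeR (adjusted p = 0.324). The estimates of the endothelial genes were all positive. Kdr was 72.6, 80.5, 70.4, 79.7 and 79.5 CPM in C3 c-JunP0Cre, against 54.8, 60.8, 67.8, 57.2 and 73.4 in C3. It was higher at 5 of 5 ages, by 0.28 ± 0.090 on average (log2), and its mean of 76.5 CPM lay near the 78.3 of WT-C3. Pecam1, Flt1, Tek, Emcn and Rgs5 were also higher at 5 of 5 ages, with log2 changes of 0.20 ± 0.13 for Flt1 to 0.27 ± 0.16 for Emcn, and none passed after adjustment. For the genes that were higher in C3 no change was detectable: Mcam differed by -0.03 ± 0.12 and Cspg4 by 0.07 ± 0.090 between C3 c-JunP0Cre and C3. With age as a replicate block, which pairs the libraries of an age, 273 genes were called in place of 77, and still none of the 10, with Kdr at adjusted p = 0.139. This comparison and that of C3 with WT-C3 share the C3 libraries.

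Between the wild types, 2 of the 10 genes differed, both higher in WT-C22, beside 21.7% of all genes and 9.99% higher. Flt1 had a mean of 79.3 CPM in WT-C22 and 64.2 in WT-C3 (log2 0.31 ± 0.077, adjusted p = 0.0144), without overlap of the libraries, as in 7.6% of all genes. Mcam had means of 193 and 136 CPM (0.51 ± 0.12, adjusted p = 0.00821). Strain is the labelled difference between these groups, and their adipocyte markers differed as well, as given after the ages. With those markers as a covariate neither gene passed. With the 4-marker sum the log2 changes were 0.40 for Mcam (adjusted p = 0.0714) and 0.18 for Flt1 (adjusted p = 0.158). That sum itself had a median of 1375 CPM in WT-C22 and 450 in WT-C3. The fit therefore cannot separate strain from adipocyte content.

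Pecam1, Flt1, Tek, Emcn and Vegfa rose with age in a fit over all libraries. None of them was called with an adipocyte marker sum in the fit, but that sum moved with age itself. The 4-marker sum was higher at 12 weeks than at 3 weeks in each of the 5 groups, as with 835 against 124 CPM in C3. Over all genes the calls fell from 4365 to 190 with it, so that fit cannot separate age from adipocyte content. In the fit with 1 slope shared by the 5 groups, 5 of the 10 genes rose with age, beside 15.5% of the 15298 genes tested in that direction and 28.5% in either. Pecam1 rose by 0.070 ± 0.014 log2 units per week (adjusted p = 0.00052), Vegfa by 0.084 ± 0.022 (adjusted p = 0.00537), Emcn by 0.041 ± 0.013 (adjusted p = 0.0178), Tek by 0.040 ± 0.013 (adjusted p = 0.0185) and Flt1 by 0.039 ± 0.0094 (adjusted p = 0.00291). Kdr did not pass (0.022 ± 0.013, adjusted p = 0.217), nor did the mural genes, whose slopes ran from -0.011 for Mcam to 0.020 for Cspg4. Pecam1 went from 81.4 CPM at 3 weeks to 166 at 12 weeks in C3 and from 106 to 109 CPM in C22. The call of a slope depended on the age range: without the libraries of 3 weeks only Vegfa was called, and without those of 12 weeks Pecam1, Flt1 and Tek, 3 genes, were.

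Taken group by group, few effects of age passed. A spline over age was called for Pecam1 in C3 (adjusted p = 0.0355) and C22 (adjusted p = 0.0400) and for Vegfa in C3 c-JunP0Cre (adjusted p = 0.0217), beside 2.27%, 0.752% and 3.38% of all genes in these groups; no gene of the 10 was called in WT-C3 (0.693% of all genes) or WT-C22 (2.86%). None of the 3 was called with a spline of 2 degrees of freedom. Vegfa was 27.4, 70.5, 65.2, 72.9 and 106 CPM in C3 c-JunP0Cre and 34.8, 38.0, 46.4, 50.2 and 82.0 in C3. The 12-week libraries were the highest of both series, and the linear slopes were 0.17 ± 0.041 and 0.14 ± 0.039 log2 units per week (adjusted p = 0.0188 and 0.0388), beside 5.97% and 5.96% of all genes. Single libraries decided both calls. In C3 c-JunP0Cre the slope of Vegfa was 0.090 without the library of 3 weeks (adjusted p = 0.279) and 0.19 without that of 12 weeks (adjusted p = 0.201). In C3 it was 0.090 without the library of 12 weeks (adjusted p = 0.533), and the call was also lost without that of 3 weeks (adjusted p = 0.214) or 5 weeks (adjusted p = 0.0730). No linear slope of the 10 genes was called in WT-C3 (2.62% of all genes), WT-C22 (7.77%) or C22 (0.784%), though without the C22 library of 12 weeks Kdr (0.16, adjusted p = 0.00591), Flt1 (0.11, adjusted p = 0.0392) and Pecam1 (0.15, adjusted p = 0.0453) were called in C22, and without the WT-C22 library of 3 weeks Cspg4 (0.090, adjusted p = 0.0440) in WT-C22. Of the 10 slopes, 3 were positive in WT-C3, against 9 in C3, WT-C22 and C22 each and 10 in C3 c-JunP0Cre. In WT-C3 Vegfa had no such course, with 68.0, 57.6, 76.0, 41.3 and 55.4 CPM. Whether the slopes of the groups differ was not tested.

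Adipocyte markers moved with the endothelial genes and Vegfa from library to library. The epineurium around the nerve holds fat, and fat is rich in capillaries. With group means removed, the summed level of Adipoq, Plin1, Cidec and Lep had a Pearson correlation of 0.87 with the mean of the 5 endothelial genes and 0.82 with Vegfa over the 25 libraries, but 0.30 with the mean of the 4 mural genes. For the list of 6, with Fabp4 and Cd36, which capillary endothelium makes too, the values were 0.88, 0.83 and 0.28. The sum over the 6 markers ranged from 986 to 1903 CPM in WT-C3, 343 to 1697 in C3, 582 to 2315 in C3 c-JunP0Cre, 1137 to 3446 in WT-C22 and 1398 to 3780 in C22. Its highest value was that of C22 at 9 weeks, the library with the highest Kdr, Flt1, Tek, Emcn, Pecam1 and Vegfa of its group. Of the 6 markers 1, Cd36, was called in C3 against WT-C3 (lower) and 0 in C22 against WT-C22, while 4 were called higher in WT-C22 against WT-C3. The shares of all genes were 11.4% lower in C3, 42.4% in either direction in C22 and 9.99% higher in WT-C22.

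**Figure D3:**
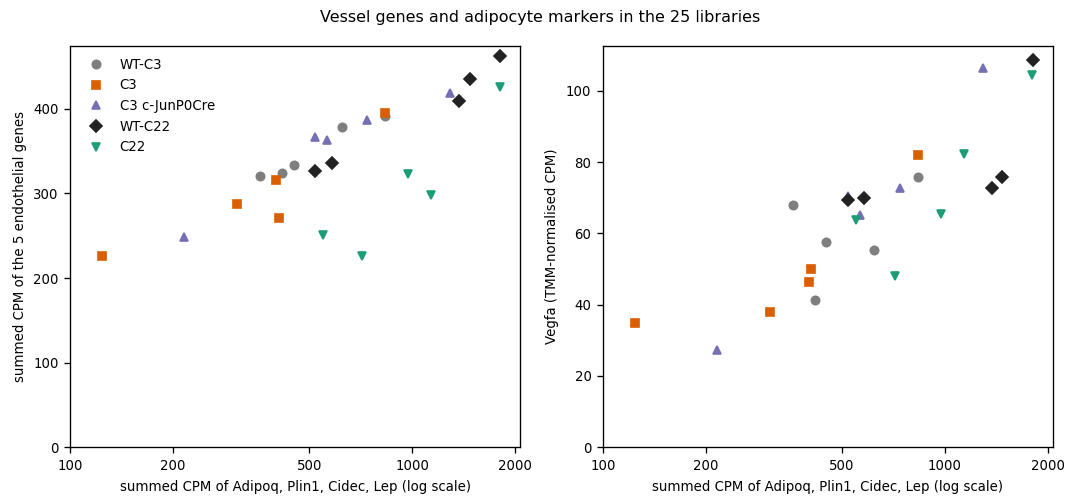
Summed CPM of the 5 endothelial genes (left) and CPM of Vegfa (right) against the summed CPM of the adipocyte markers Adipoq, Plin1, Cidec and Lep on a log axis, 1 point per library, 25 libraries in 5 groups. In each group the point farthest to the right is also the highest in both panels, and on the left the C22 points lie below those of other groups with a like adipocyte sum.

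Fits with the summed adipocyte markers as a covariate gave the following. For C22 against WT-C22 the 7 genes were called as before and Pecam1 was added, with log2 changes under the 4-marker sum of -0.77 for Kdr, -0.62 for Flt1, -0.53 for Pdgfrb and 0.66 for Mcam. For C3 against WT-C3, 4 genes were called with the 4-marker sum, with log2 changes of -0.26 for Flt1, -0.38 for Rgs5, 0.38 for Cspg4 and 0.76 for Mcam, but 2, Cspg4 and Mcam, with the 6-marker sum, under which Rgs5 stood at -0.35 (adjusted p = 0.0667) and Flt1 at -0.19 (adjusted p = 0.124). The difference between the models was called for Pecam1 (-0.38), Kdr (-0.57), Flt1 (-0.38) and Pdgfrb (-0.37) with the 4-marker sum. In C3 c-JunP0Cre against C3, where the lowest adipocyte sums of both groups were those of 3 weeks, the 4-marker fit gave log2 changes of -0.02 for Pecam1, 0.04 for Flt1 and 0.21 for Kdr. None of the common age slopes of the 10 genes was called with either sum, and over all genes the calls went from 4365 of 15298 to 190 with the 4-marker and 454 with the 6-marker sum; that of Pecam1 was -0.012 log2 units per week and that of Vegfa -0.031 with the 4-marker sum. The myelinating Schwann cell markers ran against the endothelial genes (r = -0.75 over the 25 libraries), with sums of 27443 to 39231 CPM in C22 and 44744 to 86315 in WT-C22; their part in the result was not tested.

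The endothelial genes varied together across libraries. With group means removed, the 10 pairs of endothelial genes had correlations of 0.58 to 0.82, and Vegfa had 0.62 to 0.86 with them, over the 25 libraries; the genes of a pair are read from the same libraries and share their depth and tissue content. The 6 pairs of mural genes had correlations of -0.11 to 0.43, and the 20 pairs of an endothelial and a mural gene had -0.27 to 0.83. Within groups, the summed level of further pericyte markers, described below, had r = 0.80 with the endothelial mean. It had r = 0.78 with Vegfa and 0.41 with the mural mean. For the summed smooth muscle markers these values were 0.72, 0.60 and 0.49. Pdgfrb had r = -0.11 with Rgs5, and from -0.27 with Tek to 0.05 with Flt1 among the endothelial genes. Which cells its RNA came from was not tested. The genes outside the marker lists most like the endothelial mean were Adgrf5 (r = 0.92), Afdn (0.92), Acadsb (0.91), Irag1 (0.91) and Rbpms (0.90). Those most like Vegfa were Mlxipl (0.96), Pfkfb1 (0.92), Klhdc7a (0.91), Slc2a4 (0.90) and Abcd2 (0.90), of which Slc2a4 encodes the insulin-responsive glucose transporter of fat and muscle and Mlxipl a glucose-sensing factor of lipogenic tissue. Isyna1 (0.82), Cdc42bpg (0.74), Stoml1 (0.74), Sema3f (0.72) and Mov10 (0.71) were the nearest to the mural mean.

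Other endothelial genes were lower in C22. Of 20 further endothelial markers, 9 were lower and 0 higher in C22 against WT-C22, and 3 were lower and 0 higher in C3 against WT-C3, with median log2 changes of -0.37 and -0.25. Over all genes 20.5% and 11.4% were called lower, so the C3 share of this list was near that of all genes. Abcb1a, the efflux pump of barrier endothelium, fell by 0.80 ± 0.13 (log2) in C22 (adjusted p = 0.000486). Mfsd2a, a lysophospholipid transporter of barrier endothelium, fell by 0.86 ± 0.15 in C22 (adjusted p = 0.000805) and by 0.73 ± 0.14 in C3 (adjusted p = 0.00318). Robo4, an endothelial guidance receptor, fell by 0.71 ± 0.13 in C22 (adjusted p = 0.000895). In C3, Egfl7, a factor secreted by endothelium, fell by 0.44 ± 0.12 (adjusted p = 0.0225), and the glucose transporter gene Slc2a1, which perineurial cells make too, by 0.56 ± 0.17 (adjusted p = 0.0298). The call of Egfl7 was lost without the C3 library of 5 weeks (adjusted p = 0.0637), and that of Slc2a1 without the C3 library of 3, 5 or 7 weeks or the WT-C3 library of 9 or 12 weeks (adjusted p of 0.0603 to 0.0770). The C3 count of 3 became 8 without the C3 library of 12 weeks and 1 without that of 5 weeks, and 5 without the WT-C3 library of 3 weeks, and the C22 count of 9 became 14 without the C22 library of 9 weeks. With the 6-marker adipocyte sum the C3 count was 1.

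Further pericyte genes were lower in both models. Of 10 markers 9 were tested, and 7 were lower in C22 and 5 in C3, with none higher and median log2 changes of -0.57 and -0.48, beside 20.5% and 11.4% of all genes called lower. With the 6-marker adipocyte sum as covariate 7 were called in C22 and 0 in C3, where the log2 changes of Gucy1b1 and Gucy1a1 were then -0.45 and -0.41. Vtn, the gene of vitronectin, fell by 0.71 ± 0.13 in C22 (adjusted p = 0.00101). Gucy1b1 and Gucy1a1, subunits of the nitric oxide receptor guanylate cyclase, fell in C3 by 0.57 ± 0.14 (adjusted p = 0.0146) and 0.60 ± 0.15 (adjusted p = 0.0143), and Gucy1b1 fell by 0.57 ± 0.12 in C22 (adjusted p = 0.00322). Kcnj8, a subunit of the ATP-sensitive potassium channel of pericytes, fell by 0.61 ± 0.14 in C22 (adjusted p = 0.0055) and by 0.65 ± 0.18 in C3 (adjusted p = 0.0198), a C3 call lost without the C3 library of 5 weeks (adjusted p = 0.0565). Of the mural genes and pericyte markers called in both models, Mcam was the one that rose. Leaving out 1 library at a time gave 5 to 8 called markers in C22 and 2 to 5 in C3, with 2 or 3 without the C3 library of 3, 5 or 7 weeks or the WT-C3 library of 7, 9 or 12 weeks, and library-size scaling gave 3 in each model. Of 6 smooth muscle markers, 2 were lower in C22, Tagln (-1.32 ± 0.25, adjusted p = 0.00125) and Myl9 (-0.89 ± 0.15, adjusted p = 0.000617), and in C3 Tagln (-0.77 ± 0.15, adjusted p = 0.00488) and Myl9 (-0.39 ± 0.13, adjusted p = 0.0443) were lower and Smtn, also a contractile gene, was higher (0.58 ± 0.13, adjusted p = 0.00931). Of all genes, 20.5% were called lower in C22, and 11.4% lower and 12.5% higher in C3. The C3 call of Myl9 was lost without the C3 library of 3, 5, 7 or 9 weeks or the WT-C3 library of 5, 7 or 12 weeks (adjusted p of 0.0638 to 0.104), and its log2 change was -0.26 and -0.19 with the 4-marker and the 6-marker adipocyte sum, again without a call.

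**Figure D4:**
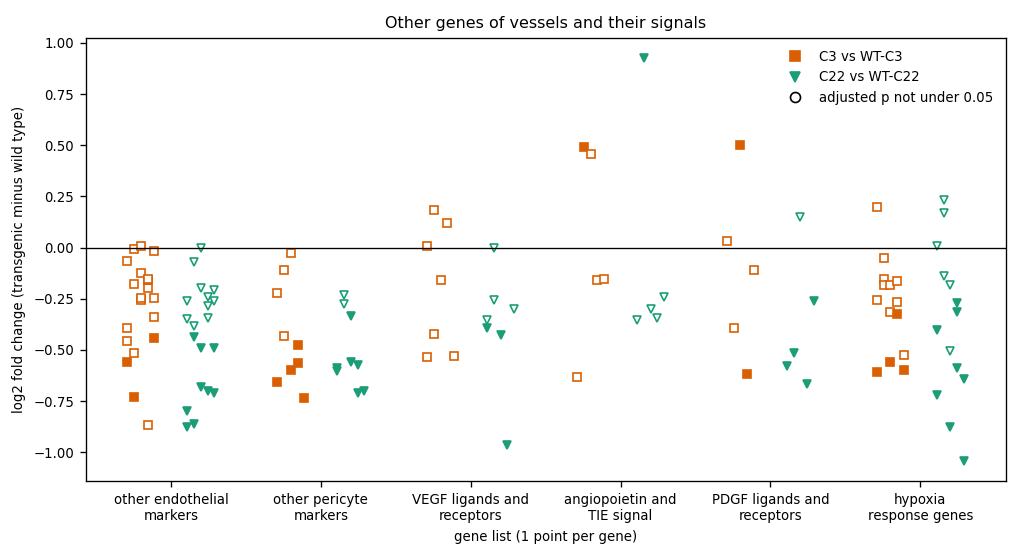
Log2 fold changes (vertical axis) of the genes of 6 lists around the vessel, 1 point per gene, for C3 against WT-C3 (squares) and C22 against WT-C22 (triangles); filled symbols had an adjusted p under 0.05. The other pericyte markers lie at or below 0 in both models, and the single filled point above 0 in the angiopoietin list is Angpt2 in each model.

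Some ligands and receptors of the VEGF and PDGF families were lower in C22, and Angpt2 was higher in both models. Of the 7 other VEGF ligands and receptors, 3 were lower in C22, beside 20.5% of all genes, and 0 were called in C3. They were Pgf, placental growth factor, another ligand of the Flt1 receptor (-0.97 ± 0.12, adjusted p = 7.82e-05), the co-receptor gene Nrp2 (-0.43 ± 0.089, adjusted p = 0.00256) and Vegfc (-0.39 ± 0.14, adjusted p = 0.0451). The call of Vegfc was lost when any one library was left out other than that of C22 at 9 weeks or WT-C22 at 5 weeks, with adjusted p of 0.0572 to 0.124. Of 5 genes of the angiopoietin and TIE signal, 1 was called in each model, Angpt2, a ligand of TIE2 that can block it, which was higher in C22 (0.93 ± 0.12, adjusted p = 0.000139) and in C3 (0.49 ± 0.10, adjusted p = 0.00649). Of all genes, 21.9% were called higher in C22 and 12.5% in C3. Without the C22 library of 9 weeks 3 genes of this signal were called in C22. Among 5 PDGF genes, 4 were lower in C22, beside 20.5% of all genes, with Pdgfb, the ligand that binds the Pdgfrb receptor, at -0.51 ± 0.087 (adjusted p = 0.000668), Pdgfa at -0.58 ± 0.11 (adjusted p = 0.00153) and Pdgfd at -0.67 ± 0.16 (adjusted p = 0.00672). In C3, Pdgfd was lower (-0.62 ± 0.17, adjusted p = 0.0218) and Pdgfc higher (0.50 ± 0.17, adjusted p = 0.0467), but 0 or 1 of the 5 was called when any one library was left out other than those of C3 at 9 or 12 weeks, and 0 or 1 with the adipocyte sums.

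Of 14 hypoxia response genes tested, 8 were lower in C22 and 4 in C3, and none was called higher, beside 20.5% and 11.4% of all genes called lower. P4ha1, a collagen prolyl hydroxylase, fell by 1.04 ± 0.082 (log2) in C22 (adjusted p = 2.21e-06) and by 0.60 ± 0.093 in C3 (adjusted p = 0.00115). Egln1, an oxygen-sensing hydroxylase, fell by 0.59 ± 0.071 (adjusted p = 6.14e-05) and 0.33 ± 0.09 (adjusted p = 0.0214). Pdk1, a kinase that limits pyruvate oxidation, fell by 0.61 ± 0.16 in C3 (adjusted p = 0.0179). Vegfa, a target of the hypoxia-inducible factors, was not called in either model. Without the C3 library of 3, 5 or 7 weeks 2 of these genes were called in C3, Egln1 no longer among them (adjusted p of 0.0511 to 0.0586), with the 6-marker adipocyte sum 2, with log2 changes of -0.28 for Egln1 and -0.51 for Pdk1, and without the WT-C22 library of 9 weeks 5 in C22.

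Genes in some marker lists of other cells of the nerve were called as well. Of all genes, 11.4% were called lower and 12.5% higher in C3, and 20.5% and 21.9% in C22. All 8 tested markers of immature and repair Schwann cells were higher in C3, and in C22 5 were higher and 2 lower; their sum had r = 0.51 with the mural mean and -0.26 with the endothelial mean within groups. Of 5 perineurial markers, 4 were lower in C3 and 5 in C22, with Cldn1, a tight junction gene, at -0.62 ± 0.074 in C22 (adjusted p = 5.91e-05). Of 8 myelinating Schwann cell markers, 2 were higher and 2 lower in C3 and 2 higher and 4 lower in C22. Among 7 fibroblast markers 1 was called in C3 and 2 in C22, all lower, and among 7 macrophage markers 0 and 2. The counts of the fibroblast and macrophage lists did not stand apart from the shares of all genes. None of the 6 skeletal muscle and 4 tested blood markers was called in either model, although the summed muscle level ran from 5.53 to 7771 CPM between libraries. Of 4 lymphatic markers, Pdpn was lower (log2 changes of -0.63 ± 0.13 in C3 and -0.74 ± 0.093 in C22) and Reln higher (0.62 ± 0.097 and 0.25 ± 0.089) in both models, and both genes are made outside lymphatic vessels as well. What part these cells have in the levels of the 10 genes was not tested.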

How the data were processed

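RNA of 25 pooled mouse sciatic nerve libraries was measured by directional poly(A) sequencing. The deposited table holds raw read counts per gene, which the authors obtained with UMI-tools 1.1.1, STAR 2.7.5a and HTSeq 0.12.4 after cutadapt 2.10 and FastQC 0.11.9, on GRCm39 and GRCh38, per the submitters' processing notes. Of 56956 genes, 56941 were mouse and 15 human, and 56323 mouse genes had a GENCODE symbol. Lines for unassigned reads were left out (no feature 8.12% to 12.11%, ambiguous 1.78% to 2.04%), so reads shared with overlapping or near-identical genes are missing from these counts.

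Groups followed the labels. Genes with log2 CPM above 1 (prior count 2) in at least 7 of 25 libraries were kept (13993), and the quasi-likelihood test of edgeR 4.0.16 in R 4.3.3 was run on the counts of the groups compared, with TMM scaling and Benjamini-Hochberg adjusted p under 0.05 over all kept genes; every adjusted p in the text comes from it unless DESeq2 1.42.0 is named. Age was fitted over all 25 libraries and 15298 genes, as a spline of 3 degrees of freedom or a line per group, or as a line shared by the groups. Genes named beyond the 10 are up to 3 per list by adjusted p in each comparison; the nearest genes are 5 per pattern by Pearson r. The 10 genes, the lists and the tests were chosen with earlier results of these data known. The fits with an adipocyte covariate and the spline fits that leave out a library were chosen after seeing the data. Tests were checked on simulated counts with a dispersion of 0.035. The test of C3 against WT-C3 called 28.8% of genes changed by 0.5 log2 units and 98.5% of those changed by 1. The test of the common age slope called 10% of genes with a slope of 0.05 log2 units per week. Changes of 0.5 or slopes of 0.05 were thus mostly missed there. Each simulation changed 200 genes, while the data called 3345 genes in C3 against WT-C3 and 4365 for the common slope. The adjusted threshold was therefore stricter in the simulations, and their shares need not hold for these data. A gene not called may still have changed. The labels give same-numbered libraries only a shared age. Their deviations correlated above 0.1 at every age for C3 c-JunP0Cre against C3 (r = 0.12 to 0.61), but not in the other comparisons.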

Additional observations from a re-analysis of the deposited data

Results flagged for a closer look

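A gene's level was compared with the rest of its group for the 10 genes in 5 groups, 50 checks in all, of which chance picks out about 1 in 20, and 3 libraries stood apart. Tek in C3 c-JunP0Cre was 33.9 CPM at 3 weeks, against 46.2 to 50.1 CPM at the other ages. Vegfa in WT-C22 was 109 CPM at 12 weeks, against 69.5 to 75.9 CPM. Cspg4 in C3 was 261 CPM at 9 weeks, against 198 to 206 CPM, in the library with 2140142 counts. The change of Pdgfrb differed between the models by a test of the difference itself, with a C22 change minus C3 change of -0.37 (log2).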

How the results depend on the processing

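The libraries are 1 per group and age, so age adds to the spread and no effect specific to an age can be tested. The C3 library of 9 weeks has the lowest depth, 2140142 counts.

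Of the 10 genes, C3 against WT-C3 called 4; DESeq2 called 7 and the 6-marker adipocyte covariate left 2, and leaving out single libraries gave 3 to 8. C22 minus C3 called 1, but 0 with library-size scaling and 0 with no filter, 4 with either adipocyte covariate, and 1 to 2 without single libraries. WT-C22 against WT-C3 called 2, 1 with all 25 libraries in 1 fit and 0 with either covariate. The common age slope called 5, 0 with either covariate and 4 to 5 without single libraries. The spline per group called 0 in C3, C3 c-JunP0Cre and C22 and 1 in WT-C22 with 2 degrees of freedom. DESeq2 called 2, 2, 3 and 2 in these groups. In C22 a linear slope and the log2 CPM filter each called 0. Without single libraries the spline called 0 to 2 in C3 and C22 and 0 to 1 in C3 c-JunP0Cre.

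Signs turned mostly in values that were not called. With the 6-marker covariate, C3 against WT-C3 gave 0.049 for Pecam1, 0.081 for Vegfa, -0.047 for Pgf and -0.034 for Pdgfa, and the 4-marker covariate gave -0.0077 for Pdgfa. With library size only, Vegfa in C22 against WT-C22 was 0.041 and Tek in C22 minus C3 0.051. Vegfa in C22 minus C3 was -0.16 and -0.045 with 6 and 4 markers. In C3 c-JunP0Cre against C3, 6 markers gave -0.069 for Pecam1, -0.080 for Vegfa and 0.034 for Mcam, and 4 markers -0.021, -0.0082 and 0.020. Between the wild types, 6 markers gave -0.19 for Pecam1, -0.16 for Tek and 0.0051 for Pdgfrb, 4 markers -0.22, -0.18 and 0.0064, and no filter 0.00032 for Pdgfrb. The common slopes with 6 markers were -0.0034 for Pecam1, -0.024 for Kdr, -0.0015 for Flt1, -0.012 for Tek, -0.0048 for Emcn, -0.020 for Vegfa, -0.0013 for Pdgfrb and -0.019 for Rgs5. With 4 markers they were -0.012, -0.026, -0.0069, -0.021, -0.012, -0.031, -0.0049 and -0.024 in that order. The slope of Pdgfrb was also -0.00056 with the log2 CPM filter, -0.0011 with no filter, -0.00041 with DESeq2 size factors and -0.00082 with DESeq2, -0.00046 without the libraries of 3 weeks, -0.0011 without those of 5 weeks and -0.0022 without those of 12 weeks. Without single libraries it ran from -0.0032 to 0.0033, Tek in C22 minus C3 from -0.14 to 0.040 and Vegfa from -0.064 to 0.39, Vegfa in C22 against WT-C22 from -0.30 to 0.012, Mcam in C3 c-JunP0Cre against C3 from -0.088 to 0.036, and in C3 against WT-C3 Pdgfa from -0.061 to 0.11 and Pgf from -0.0029 to 0.25. The cause was not tested.

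With age as a replicate block, 4 genes were called in C3 against WT-C3, 8 in C22 against WT-C22 (Pecam1 was added, at -0.46), 1 in C22 minus C3, 0 in C3 c-JunP0Cre against C3 and 2 between the wild types. Among the lists the block gave 8 endothelial markers in place of 3 and 1 VEGF gene in place of 0 in C3, 2 angiopoietin and TIE genes in C3 and 3 in C22 in place of 1 each, and no call of Vegfc in C22 (adjusted p = 0.0558) or Pdgfc in C3 (adjusted p = 0.0596). In C3 c-JunP0Cre against C3, where the ages pair the libraries, the block changed no call of the 10 genes. With library size only, 71.4% of the genes called in C3 against WT-C3 were higher, against 52.1% with TMM, and 63.1% against 39.4% in C22 minus C3.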
